A study of Mus musculus with 11 samples.

Results

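miR-148a-3p, the mature strand cut from the 3′ arm of the mir-148a hairpin, was followed in mouse feces through the phases of a chemical colitis. It was 1 row, chosen by its name, of the 616 rows of the deposited miRNA table, and 1 of the 137 rows that passed a filter on low counts. It was singled out with its abundance and its lower values after colitis in these same libraries already known, so its levels and fold changes are given as a description, without p-values. C57BL/6 mice drank 2.5% dextran sulfate sodium (DSS), which damages the colonic epithelium, for 5 days and then DSS-free water. Small RNA was sequenced from feces taken before DSS (n = 4 libraries), after 5 days of DSS (n = 3), the acute phase, and after 7 days of recovery (n = 4), which the sample titles call day 12. The labels give no age, sex or mouse identity and list no untreated mice sampled on the later days, so phase and sampling day cannot be told apart. Each library carries the number of its deposited column.

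MicroRNAs are RNAs of about the length of the sequences below that guide Argonaute proteins to messenger RNAs. Pairing of the seed, bases 2 to 8 from the 5′ end, to sites in the message lowers its translation and stability, so miRNAs with the same seed share many targets. miR-148a is abundant in liver and in the epithelium of the gut, and its best known target is Dnmt1, the enzyme that copies DNA methylation at cell division. Fecal miRNA comes from shed epithelial cells, blood cells, vesicles and food, and a lower level in such a mixture can mean fewer cells of a type or less of the miRNA per cell, which cannot be told apart here.

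The 3 rows of the table with the seed CAGUGCA are printed here because the comparison within this seed family follows from them (RefSeq sequences, build GRCm38.p6, 5′ to 3′, seed in capitals). Of the 616 rows, 461 matched a RefSeq mature miRNA by name.
miR-148a-3p: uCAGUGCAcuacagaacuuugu
miR-148b-3p: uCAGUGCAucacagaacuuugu
miR-152-3p: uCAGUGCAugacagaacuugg
Counted from 1 at the 5′ end of miR-148a-3p, miR-148b-3p differs by C9U and U10C, and miR-152-3p by C9U, U10G and U20G, with a length of 21 bases in place of 22. The number of mismatches allowed when reads were assigned is not given in the sources used here, so the split of reads between such close sequences is uncertain. The hairpin is printed because it yields both strands counted below. In its sequence the capitals mark first the 5p and then the 3p strand.
mir-148a hairpin: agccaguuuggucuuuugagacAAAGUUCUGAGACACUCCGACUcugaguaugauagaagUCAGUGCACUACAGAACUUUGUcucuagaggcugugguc
It lies at chr6:51269812-51269910 on the minus strand (GRCm38.p6), where the GENCODE vM21 annotation shows no gene other than Mir148a itself, and the nearest protein-coding gene, Nfe2l3, is 162760 bases away. The miR-148b hairpin, at chr15:103285125-103285221, is within an intron of Copz1, and the miR-152 hairpin, at chr11:96850393-96850465, within an intron of Copz2.

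The totals ran from 11749 to 40835 miRNA counts per library. Some libraries stood apart. Correlations were taken in log2 CPM, which are counts scaled to equal library totals, here also with the TMM factors described below. Before-DSS library 2 correlated with the rest of its phase at a median of 0.853, against 0.964 to 0.966 for the other 3. These medians were 0.896 to 0.911 on day 5 and 0.797 to 0.849 on day 12, so that library stood apart only within its own phase. On the first principal component of the same values recovery library 4 had a score of 15.2, with 6.82 for the next library. The fold changes of miR-148a-3p, its ratios to single rows and the rows most like it were also computed without these libraries. The labels give no batch or date. They do not say whether libraries of a phase came from separate mice, so the spread between them may be in part technical.

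miR-148a-3p held a large part of the fecal miRNA counts in every library. Before DSS it took 20.02%, 14.0%, 18.1% and 22.0% of the miRNA counts in libraries 1 to 4. On day 5 it took 13.0%, 9.38% and 9.46% in libraries 1, 3 and 4. On day 12 it took 10.5%, 8.15%, 6.51% and 4.13% in libraries 1 to 4. Every library from the 2 later phases thus had a smaller share than every library from before DSS, and the day 5 and day 12 ranges overlapped. The mean share was 18.5% ± 3.42 before DSS, 10.6% ± 2.07 on day 5 and 7.32% ± 2.68 on day 12 (SD, n = 4, 3 and 4). Counting error was small beside this spread, since the shares rest on 1111 to 6132 reads of miR-148a-3p per library. The 95% Wilson interval was 21.5% to 22.5% in the highest library and 3.91% to 4.37% in the lowest, and it covers counting error only. The narrowest gap to the phase before DSS lay between day 5 library 1 and before-DSS library 2. The difference was -0.99 percentage points, with a 95% Newcombe interval of -1.76 to -0.23. That interval takes reads as its units and covers counting error in a pair of libraries picked as the closest. It says nothing about the difference between phases.

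**Figure D1:**
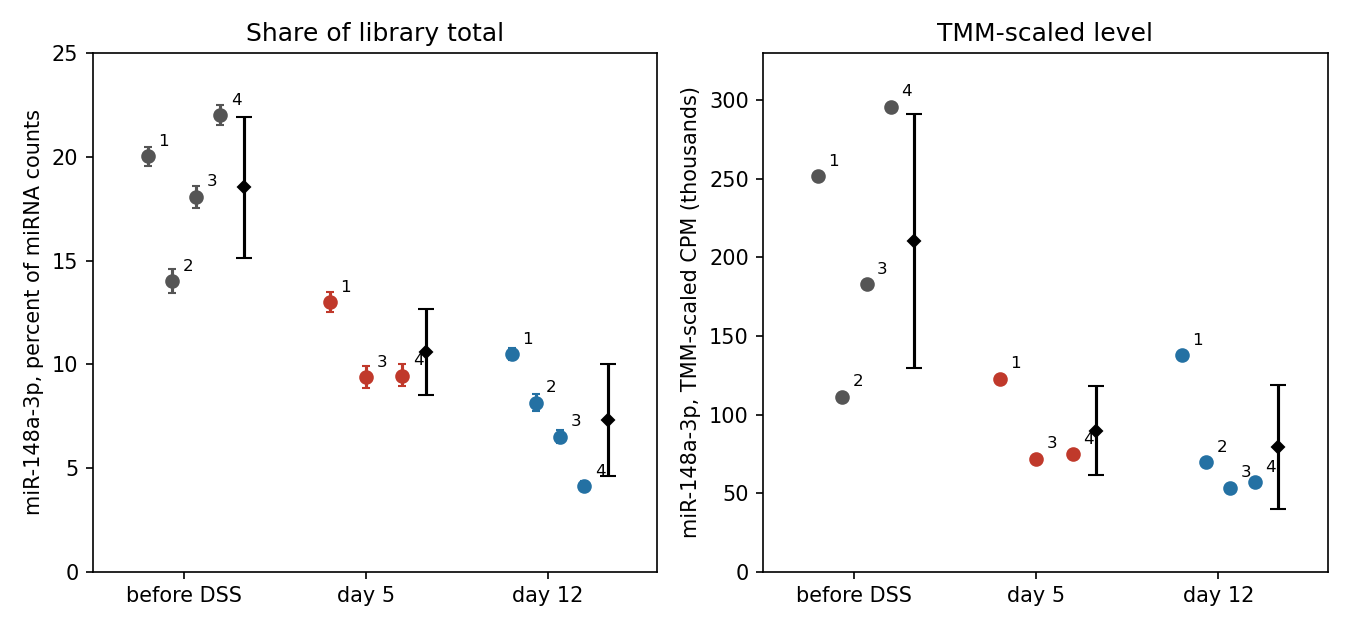
miR-148a-3p in each library by phase, as percent of the library's miRNA counts (left, with 95% Wilson intervals) and as CPM scaled with TMM factors (right). Circles are libraries with the number of the deposited column, and black diamonds with bars are phase means ± SD. All 7 later libraries lie below the lowest before-DSS library (14.0%) on the left, whereas on the right before-DSS library 2 lies within the range of the later phases.

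By rank, miR-148a-3p was the most abundant row in before-DSS library 4, the second in 9 of the 11 libraries and the fourth in recovery library 4. In those 9 libraries the row above it was miR-21a-5p, which is raised in inflamed tissue and in many tumours. The place of the phases depended on the scaling. TMM factors, which edgeR computes so that most rows keep their level, ran from 0.727 to 1.30 and were low in the libraries whose counts were held by few rows. On the TMM scale miR-148a-3p stood at 251615, 111455, 182825 and 295838 CPM in before-DSS libraries 1 to 4. It stood at 122810, 72042 and 74814 CPM in day 5 libraries 1, 3 and 4. In recovery libraries 1 to 4 it stood at 137802, 69938, 53668 and 56900 CPM. Before-DSS library 2 lay below day 5 library 1 and recovery library 1 on this scale, so that the phases overlapped, while the other 3 before-DSS libraries lay above all 7 later ones.

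For day 5 against before DSS, the question was how miR-148a-3p stood in acute colitis. The mean share was 10.6% on day 5 and 18.5% before DSS, a ratio of 0.573. Of the 137 rows tested, 5.11% had all day 5 libraries below all before-DSS libraries by share, and 4.38% with TMM factors. The fitted log2 fold change with TMM factors was -1.23 ± 0.47 (SE), or 0.427 of the level before DSS, and 16 of the 137 rows had a lower one. It was -1.52 without day 5 library 1, which held the highest share of its phase, and -1.35 without before-DSS library 2. With scaling by library totals alone the median log2 fold change over the 137 rows shifted by 0.31, and the value was -0.80 for miR-148a-3p, which is 1.14 below the median of all rows on that scale and 1.26 below it with TMM factors.

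For day 12 against before DSS, the question was whether the starting level had returned after a week without DSS. The mean share was 7.32% on day 12 and 18.5% before DSS, a ratio of 0.395. By share, 4.38% of the 137 rows had all recovery libraries below all before-DSS libraries, and 2.92% with TMM factors. The fitted log2 fold change was -1.40 ± 0.43 (SE), or 0.378 of the level before DSS, and 4 of the 137 rows had a lower one. It was -1.81 without recovery library 1 and -1.35 without both before-DSS library 2 and recovery library 4. Across the 26 alternative settings tried for each comparison, it lay between -1.81 and -1.19.

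Between day 12 and day 5 the direction was not settled. The mean share was 7.32% on day 12 and 10.6% on day 5, a ratio of 0.690, while the ratio of TMM-scaled means was 0.885. The fitted log2 fold change was -0.18 ± 0.46 (SE), less than its error. It was -0.54 with library totals alone, which moved the median of all rows by -0.28, and it turned to 0.12 when day 5 library 1 was left out. The ranges of these phases overlapped on both scales, where 8.76% of rows had all recovery libraries below all day 5 libraries by share and 7.3% with TMM factors.

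**Figure D2:**
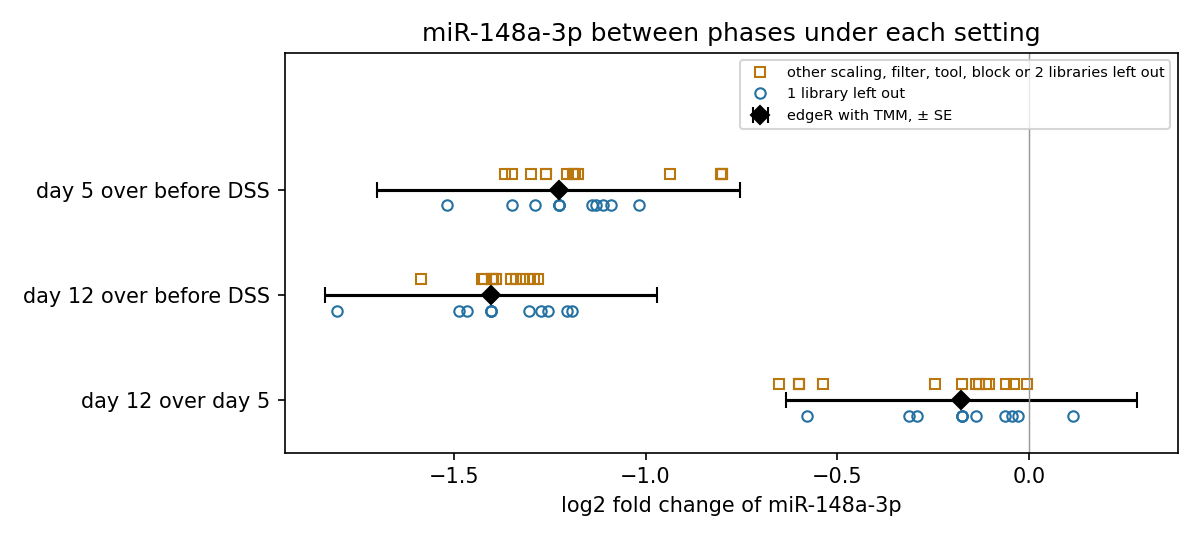
Log2 fold change of miR-148a-3p for the 3 comparisons of phases. Black diamonds are the edgeR values with TMM factors ± SE, blue circles leave out 1 library each, and orange squares stand for the other settings. Both comparisons with the phase before DSS lie below 0 under every setting drawn, whereas day 12 over day 5 reaches from -0.65 to 0.12.

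Because shares of a total move with the other rows, miR-148a-3p was also set against single abundant rows of the same library, which needs no scaling. The mature sequences of these rows have similar lengths (21 to 23 bases for the 9 of the 10 most abundant that matched RefSeq), so the ratios are of counts with no length term. Against miR-21a-5p the ratio was 0.956, 0.892, 0.980 and 1.13 in before-DSS libraries 1 to 4. It was 0.648, 0.459 and 0.472 in day 5 libraries 1, 3 and 4. On day 12 it was 0.282, 0.327, 0.238 and 0.0985 in libraries 1 to 4. These miRNAs were thus about level before DSS, and the 3 phases did not overlap in their ratio. Of the 136 rows other than miR-148a-3p that passed the filter, 26.5% had a ratio of it to them that was lower in all day 5 than in all before-DSS libraries. For all recovery below all before-DSS libraries it was 32.4%, and for all recovery below all day 5 libraries 11.8%. The denominator moved as well, since miR-21a-5p took 18.6% ± 2.21 of the counts before DSS, 20.2% ± 0.226 on day 5 and 32.8% ± 8.05 on day 12 (SD, n = 4, 3 and 4). With miR-21a-5p taken out of the totals, the share of miR-148a-3p was 22.8% ± 4.67 before DSS, 13.3% ± 2.58 on day 5 and 10.9% ± 4.15 on day 12 (SD, n = 4, 3 and 4). On that basis the highest value on day 5 was 16.3% (library 1), close to the lowest before DSS, 16.6% (library 2). How many of all rows had phases that did not overlap on this basis was not computed. Recovery library 1, at 16.7%, reached into the range before DSS.

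Against the other 9 of the 10 most abundant rows, the mean log2 ratio of miR-148a-3p was lower on day 12 than before DSS for 9 of 9, by a median of -1.04, and 4 of the 9 had phases that did not overlap, where 32.4% of all 136 rows did so. On day 5 it was lower than before DSS for 7 of 9, by a median of -0.92. Over the 136 rows it was lower for 127 on day 12 and for 123 on day 5, with medians of -1.31 and -1.19. The 2 exceptions among the 9 on day 5 were miR-192-5p (0.33) and miR-378a-3p (0.52). The first is abundant in gut epithelium, and the second is encoded within a gene of oxidative metabolism. Both had lower log2 fold changes than miR-148a-3p itself on day 5 against before DSS, of -1.55 and -1.92. Without before-DSS library 2 these exceptions stood at 0.62 and 0.88. The difference against let-7i-5p, a member of the let-7 family of differentiated cells, was -2.05 on day 5 and -1.46 on day 12. Neither later phase overlapped with the phase before DSS, as for 26.5% (day 5) and 32.4% (day 12) of the 136 rows. miR-9-5p and miR-9b-3p had nearly the same counts, at most 3 apart in any library, so these rows do not count as separate comparisons. Against miR-9-5p the day 12 difference was -0.27, but -1.17 without recovery library 4, -0.74 without before-DSS library 2 and -1.64 without both. Without both, the median over the 9 rows on day 12 was -1.64, which is the value of miR-9b-3p, beside -1.62 over the 136 rows. It was -0.82 without before-DSS library 2 alone and -1.17 without recovery library 4 alone.

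**Figure D3:**
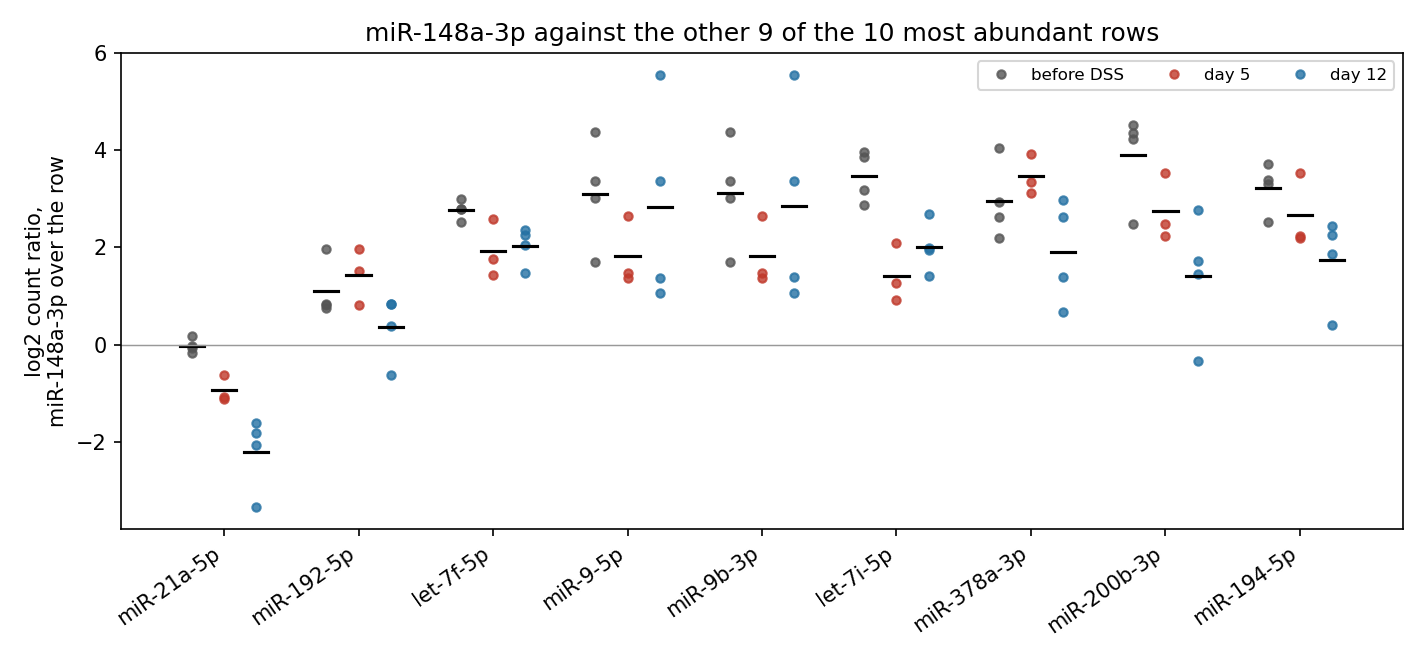
Log2 ratio of the counts of miR-148a-3p to those of each of the other 9 of the 10 most abundant rows, per library. Points are libraries coloured by phase, black bars are phase means, and 0 marks equal counts. Against miR-21a-5p the mean was -0.02 before DSS, -0.94 on day 5 and -2.21 on day 12, with no overlap.

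The other strand of the hairpin was rare. miR-148a-5p had 5, 2, 2 and 0 counts in before-DSS libraries 1 to 4. It had 3, 1 and 1 on day 5 and 2, 4, 3 and 3 on day 12. Pooled by phase it reached 97.7 CPM before DSS (9 of 92108 counts), 119 CPM on day 5 (5 of 42075) and 107 CPM on day 12 (12 of 112664). The 3p strand thus made up 99.9% of the reads of the hairpin in each phase. With 0 to 5 counts per library, a difference of the size seen for miR-148a-3p was not detectable for the 5p strand, and the row did not pass the filter.

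The other rows of the seed family were rare. miR-148b-3p took 0.0822%, 0.181%, 0.219% and 0.147% of the counts in before-DSS libraries 1 to 4. It took 0.274%, 0.281% and 0.323% in day 5 libraries 1, 3 and 4. In recovery libraries 1 to 4 it took 0.191%, 0.297%, 0.295% and 0.179%. All 3 day 5 libraries were above all before-DSS libraries by share, as were those of 16.1% of the 137 rows, and the recovery libraries overlapped with those from before DSS. On the TMM scale this was turned round, since the day 5 libraries overlapped with those from before DSS and the 4 recovery libraries, at 2435 to 2547 CPM, were above all of them, at 1033 to 2212 CPM, as were 8.76% of the 137 rows. miR-148b-3p did not pass the test over all rows in any comparison. Its log2 fold change was 0.55 ± 0.32 (SE) on day 5 against before DSS and 0.58 ± 0.29 (SE) on day 12 against before DSS, with adjusted p of 0.341 and 0.346 in edgeR's quasi-likelihood test with Benjamini-Hochberg adjustment. For day 12 over day 5 it was 0.03 ± 0.31 (SE), and the edgeR adjusted p was 0.949.

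miR-152-3p had 14, 3, 18 and 10 counts in before-DSS libraries 1 to 4, then 17, 6 and 1 on day 5 and 16, 5, 2 and 3 on day 12. Pooled over a phase this was 489 CPM before DSS, 570 CPM on day 5 and 231 CPM on day 12, and the ranges of the phases overlapped. Its mean share on day 5 was 1.05 of that before DSS, beside 0.573 for miR-148a-3p. On day 12 it was 0.440 of that before DSS, beside 0.395 for miR-148a-3p. It did not pass the filter and has no test. The remaining rows of these hairpins were nearly empty, with 9 counts of miR-148b-5p and 1 of miR-152-5p over all libraries.

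**Figure D4:**
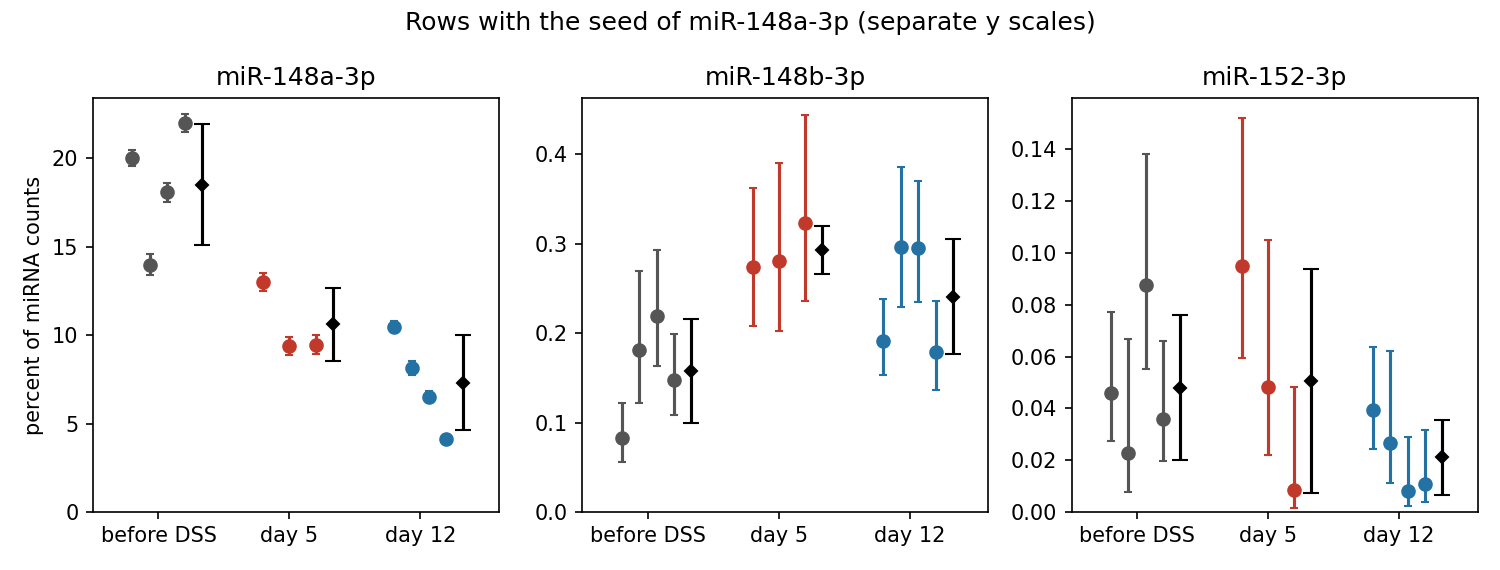
The 3 rows that share the seed of miR-148a-3p, as percent of miRNA counts per library, each panel with its own y scale that starts at 0. Circles with bars are libraries with 95% Wilson intervals, and black diamonds are phase means ± SD. miR-148a-3p is lower after DSS began (10.6% and 7.32% against 18.5%), miR-148b-3p has a higher mean share in both later phases (0.293% and 0.241% against 0.157%), and miR-152-3p overlaps throughout.

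The ratio of miR-148a-3p to miR-148b-3p counts was 243.6, 77.2, 82.7 and 149.6 in before-DSS libraries 1 to 4. It was 47.4, 33.4 and 29.2 in day 5 libraries 1, 3 and 4, and 54.9, 27.5, 22.0 and 23.1 in recovery libraries 1 to 4. Every later library had a lower ratio than every library before DSS. The same held against 26.5% of the 136 rows on day 5 and 32.4% on day 12, so it is not particular to miR-148b-3p. The log2 ratio was 6.93 ± 0.78 before DSS, 5.15 ± 0.36 on day 5 and 4.88 ± 0.61 on day 12 (SD, n = 4, 3 and 4). The family was still almost wholly miR-148a-3p, at 98.9% ± 0.489 of its reads before DSS, 96.8% ± 0.364 on day 5 and 96.3% ± 1.08 on day 12 (SD, n = 4, 3 and 4). Reads with this seed therefore took 18.7%, 10.96% and 7.58% of all miRNA counts in the 3 phases, close to miR-148a-3p alone.

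A list of 11 miRNAs of gut epithelium, among them miR-192, miR-194, miR-215 and the miR-200 family, was compared row by row, and 10 of its members passed the filter. By edgeR's quasi-likelihood test with Benjamini-Hochberg adjustment, 0 of the 11 rows made up by these 10 and miR-148b-3p were called in each comparison, where 0%, 6.57% and 3.65% of the 137 rows were called for day 5 over before DSS, day 12 over before DSS and day 12 over day 5. At an unadjusted p under 0.05 there were 3 lower on day 5 than before DSS (miR-192-5p, miR-200a-3p and miR-215-3p), beside 11.7% of the 137 rows. On day 12 against before DSS there were 2 higher (miR-200b-3p and miR-200c-3p) and 1 lower (miR-215-3p), beside 12.4% of the 137 rows higher and 4.38% lower. On day 12 against day 5 there were 2 higher (miR-200c-3p and miR-429-3p), beside 13.1% of the 137 rows. DESeq2 called 0, 1 and 0 of the 11 and limma-voom 0, 0 and 0. The 1 was miR-215-3p (DESeq2 adjusted p = 0.0233).

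The 10 gut rows had a median log2 fold change of -0.78 for day 5 over before DSS, beside 0.03 over all rows. For day 12 over before DSS it was -0.37, beside -0.02 over all rows. For day 12 over day 5 it was 0.73, beside -0.03 over all rows. Against the 136 other rows in the same library, the mean log2 ratio of miR-148a-3p was lower than before DSS for 123 on day 5 and 127 on day 12. The medians were -1.19 and -1.31, so a lower ratio than before DSS was the rule and is not particular to a list. Against the gut rows it was lower on day 5 than before DSS for 7 of 10 (median -0.33). On day 12 it was lower than before DSS for 9 of 10 (median -1.10, and -0.81 without recovery library 4), and 4 of the 10 had no overlap, beside 32.4% of the 136 rows. The exception was miR-215-3p, with 0.54. The differences against miR-141-3p, of the miR-200 family, were -0.05 on day 5 and -0.16 on day 12 and rested on before-DSS library 2, which held 0 counts of it. Without that library they were 1.05 and 0.94. On day 12 the widest gap was to miR-200b-3p, with -2.49 (-1.91 without recovery library 4), although the libraries overlapped. Its log2 ratio was 1.41 ± 1.29 on day 12 and 3.90 ± 0.95 before DSS (SD, n = 4 each). The only gut rows for which all day 5 libraries lay below all before-DSS libraries in this ratio were miR-429-3p, of the miR-200 family, and miR-375-3p, a miRNA of endocrine cells, with -0.42 and -1.37, and without before-DSS library 2 there were 4 of 10. That library moved the share over all 136 rows as well, which was 26.5% with it and 68.4% without it. For day 12 over day 5 the ratio was lower for 8 of 10 gut rows (median -0.95, and -0.53 without recovery library 4). Over the 136 rows it was lower for 77 (median -0.17, and -0.07 without recovery library 4). Of the 10 gut rows 1 had no overlap there, beside 11.8% of the 136 rows.

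Likeness to miR-148a-3p was measured as the SD over the 11 libraries of the log2 count ratio of a row to it, after adding 0.5 to each count. This SD had a median of 1.11 over the 136 other rows, beside an SD of 0.73 for the log2 share of miR-148a-3p itself. A row of constant share would have about 0.73. The 5 lowest were miR-101b-3p (0.35), miR-200a-5p (0.46), let-7f-5p (0.54), miR-3074-5p (0.61) and miR-24-3p (0.61). The last pair had equal counts in 10 of 11 libraries, so they stand for 1 profile. None of the 5 has the seed of miR-148a-3p, and miR-148b-3p, which does have it, came in place 73 of 136, with an SD of 1.13. Over all libraries, the gut row nearest to miR-148a-3p was miR-215-3p in place 6 (0.62). miR-215-5p followed in place 11 (0.70) and miR-192-5p in place 15 (0.72), both near the 0.73 of a row of constant share. miR-101b-3p and miR-200a-5p kept places 1 and 2 without before-DSS library 2, without recovery library 4 and without both. The next places depended on recovery library 4, since without it let-7f-5p came in place 11, miR-24-3p in place 9 and miR-3074-5p in place 10. Gut rows moved too. Without that library miR-200a-3p came in place 3 (0.40), miR-215-5p in place 4 (0.51) and miR-192-5p in place 7 (0.54). miR-215-3p fell to place 13 (0.60).

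miR-101b-3p, known in its human form for repressing the histone methyltransferase EZH2, took 0.171%, 0.121%, 0.151% and 0.190% of the counts in before-DSS libraries 1 to 4. It took 0.168%, 0.0883% and 0.145% on day 5 and 0.122%, 0.0954%, 0.0758% and 0.0681% on day 12. Recovery library 1, at 0.122%, was just above before-DSS library 2, at 0.121%, and the other 3 recovery libraries lay below all from before DSS. Its counts, 11 to 53 per library, leave wide counting error. miR-101b-3p, miR-200a-5p and let-7f-5p were picked for a steady ratio to miR-148a-3p in these same libraries. Their direction between phases follows in part from that choice, so their log2 fold changes are given without p-values. Against before DSS those of miR-101b-3p were -0.66 ± 0.47 (day 5) and -0.85 ± 0.42 (day 12), both ± SE. Those of miR-200a-5p, the other strand of an epithelial hairpin, were -1.12 ± 0.49 and -0.88 ± 0.44 (SE). let-7f-5p had -0.37 ± 0.37 and -0.64 ± 0.34 (SE).

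**Figure D5:**
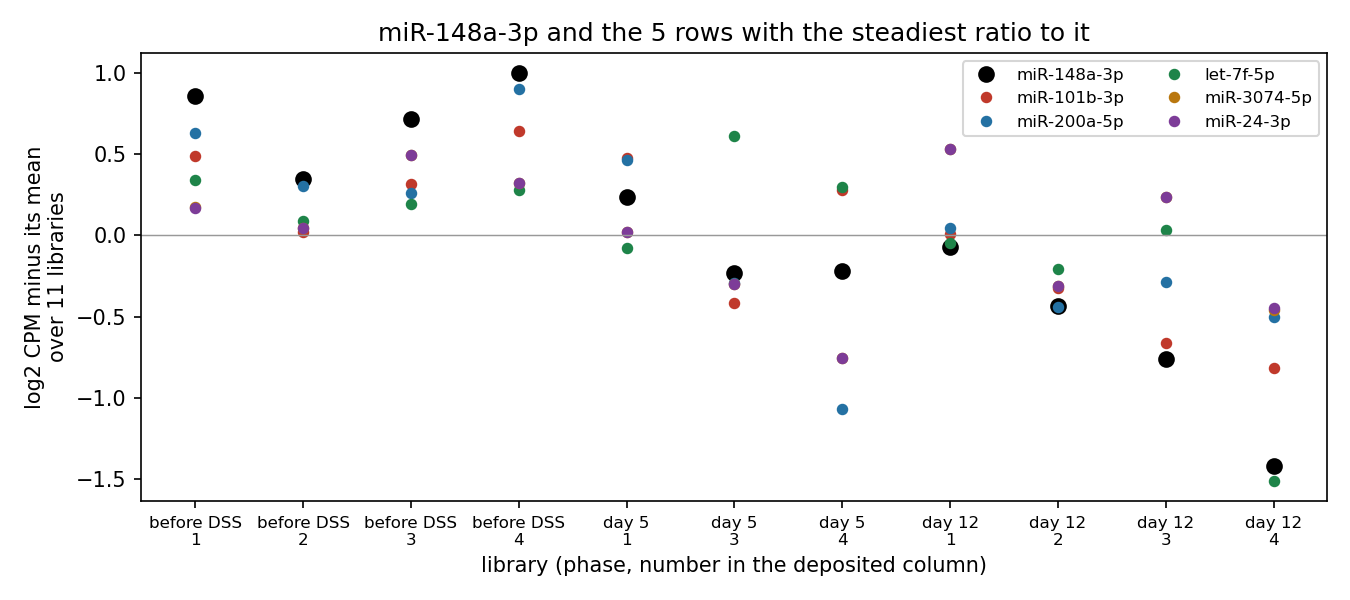
Log2 CPM of miR-148a-3p (large black points) and of the 5 rows with the steadiest count ratio to it, each minus its mean over the 11 libraries. Libraries run from left to right by phase. miR-148a-3p lies above its mean in all before-DSS libraries and in day 5 library 1, and lowest in recovery library 4, and miR-3074-5p is hidden behind miR-24-3p because their counts were nearly equal.

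Of the marker lists of other cell types, only that of leukocytes had rows called by edgeR at an adjusted p under 0.05. All 4 of its rows that passed the filter were called higher on day 12 than before DSS, beside 6.57% of the 137 rows called in either direction. For day 12 over day 5, 1 was called higher, beside 3.65% of the 137 rows. These 4 rows are the strands of the miR-223 and miR-142a hairpins. The 7 listed rows held 24 counts before DSS, 73 on day 5 and 836 on day 12. The 4 rows thus passed the filter through the phases where they were high, and their calls are no separate support. Of the other lists, 0 of the 2 red blood cell, 1 liver and 2 smooth muscle rows tested were called in any comparison. The summed level of the 7 leukocyte miRNAs ran from 194 to 453 CPM before DSS, 1285 to 2468 CPM on day 5 and 6203 to 9501 CPM on day 12, led by miR-223-3p. The red blood cell list summed to between 6961 and 16616 CPM before DSS, 21921 and 37961 CPM on day 5 and 4114 and 24594 CPM on day 12, from 4 listed rows. The gut epithelium list summed to between 125151 and 225870 CPM, 62390 and 186661 CPM, and 117218 and 206539 CPM in the 3 phases. miR-122-5p, the miRNA of hepatocytes, stood at 1870 ± 795 CPM before DSS, 779 ± 364 CPM on day 5 and 759 ± 477 CPM on day 12 (SD, n = 4, 3 and 4). The smooth muscle and stroma list summed to between 5310 and 11405 CPM before DSS, 7722 and 12847 CPM on day 5 and 1577 and 9330 CPM on day 12. The exocrine pancreas list held 4 counts over all libraries, from 2 rows. The part of these cell types in the level of miR-148a-3p was not tested. miR-29a-3p, of the family that also represses DNA methyltransferases, had a log2 fold change of -0.18 for day 5 over before DSS and of 0.06 for day 12 over before DSS (edgeR adjusted p = 0.803 and 0.956).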

How the data were processed

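Per the file headers, the authors deposited a raw read count for each of 616 miRNA rows (544 named, 72 numbered) in 11 libraries. The 11 other columns, scaled values, were not used. Per the labels' protocols, RNA came from homogenized feces (mirVana kit), and TruSeq small RNA libraries were sequenced on an Illumina instrument. ACGT101-miR removed adapter dimers, junk, ribosomal, transfer and other small RNAs and repeats. Aligner, miRNA release and build were not given in the sources used here, so totals are miRNA counts and not sequencing depth.

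Columns of day 12 match sample titles. The columns assigned to the phase before DSS carry the number 1 where the titles carry 0, and those of day 5 are numbered 1, 3 and 4 where the titles number 1 to 3, so both could be assigned only to their phase. The protocol in the labels speaks of 9 libraries, whereas 11 are listed. Counts were fitted with the quasi-likelihood F-test of edgeR 4.0.16 (TMM factors, default filter, 137 rows holding 94.1% to 98.2% of counts) in R 4.3.3, with all 11 libraries on phase, after a test on simulated data. P-values were adjusted by Benjamini-Hochberg over the 137 rows, with a threshold of 0.05, and measure only the spread between these libraries. Standard errors come from the F statistic. Alternatives were other scalings, filters, DESeq2 1.42.0, limma 3.58.1 (voom, and trend on log2 of the count share with pseudocounts of 1, 0.1 and 10), fits of only 2 phases, the column number as a replicate block, the ratio to all other rows of a library, and leaving out each library. Leaving out before-DSS library 2 with recovery library 4, and either of them for ratios and likeness, was added after seeing the data. miR-148a-3p and the lists were chosen with earlier results of these data known. The rows named are miR-148a-3p, all rows of the mir-148a, mir-148b and mir-152 hairpins, the 5 rows of steadiest ratio, the 10 most abundant, gut epithelium rows past the filter, and the leading row of the other lists. let-7i-5p, miR-378a-3p, miR-429-3p and miR-375-3p were picked from these for their values.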

Additional observations from a re-analysis of the deposited data

Results flagged for a closer look

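In groups of 4 libraries, a library whose gap to the nearest other exceeded Dixon's 95% critical share of the group's range was marked, for 23 quantities in 46 groups. Chance marks about 1 in 20. None of the marks was on miR-148a-3p or its seed family, and 4 were on gut epithelium rows used as its denominators. In before-DSS library 2, miR-200b-3p took 2.492% of the counts, against 0.8795% to 1.065% in the other 3 libraries. In the same library miR-215-3p took 0.136%, against 0.277% to 0.287%, and miR-141-3p 0.0%, against 0.1052% to 0.1215%. In recovery library 4, miR-194-5p took 3.119%, against 1.696% to 1.920% in the other 3.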

How the results depend on the processing

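The log2 fold change of miR-148a-3p stayed below 0 under all 26 alternatives for day 5 over before DSS and for day 12 over before DSS, and moved by less than the pooled SD between libraries of 0.58. Leaving out 1 library gave -1.52 to -1.02 for day 5 and -1.81 to -1.19 for day 12 over before DSS, and the other settings -1.37 to -0.80 and -1.59 to -1.28. For day 12 over day 5 leaving out 1 library gave -0.58 to 0.12, and the other settings -0.65 to -0.00471. It was above 0 only without day 5 library 1 (0.1161).

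Of the 11 seed-family and gut rows, 0 were called in the main edgeR fit (TMM factors, default filter, all libraries). The replicate block (column number) called 3 for day 5 over before DSS, 1 for day 12 over before DSS and 1 for day 12 over day 5. For day 12 over before DSS 1 was called, miR-215-3p each time, with library totals only, no filter (16 rows), DESeq2, limma-trend (pseudocount 1 or 10), and when before-DSS library 2 was left out together with recovery library 4. Leaving out 1 library gave 0 to 1 there (1 without before-DSS library 2 or recovery library 1) and 0 in the other comparisons. For miR-148b-3p, day 12 over day 5 turned to -0.286 with library totals only, -0.3196, -0.3197 and -0.3183 with limma-trend (pseudocounts 1, 0.1 and 10), and leaving out 1 library gave -0.04822 (day 5 library 3) to 0.07818. The cause was not tested. The ratio of miR-148a-3p to miR-141-3p against before DSS turned to 1.05 on day 5 and 0.9406 on day 12 without before-DSS library 2, and to 1.05 and 0.5463 without recovery library 4 as well, because before-DSS library 2 held 0 counts of miR-141-3p.

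The labels do not say that a number marks a mouse. Deviations of same-numbered libraries correlated at -0.102 to 0.512 (median 0.194), over 0.1 in 9 of 10 pairs, against -0.598 to 0.464 (median -0.091) and 6 of 30 pairs with other numbers. A library correlated best with its own number in 10 of 20 cases. The numbers were not used as pairing, for which every pair over 0.1 was required, but the values do not show that they are unrelated. With the replicate block the log2 fold changes of miR-148a-3p were -1.37, -1.43 and -0.06.

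Ratios of group means of the deposited scaled values were not run, since those columns were not used. A miRNA with few reads, such as miR-148a-5p, could not be compared at totals of 11749 to 40835 counts.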
